A study of Equus caballus with 21 samples.

Results

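Complement components and inhibitors were followed through 3 compartments of the horse endometrium. The genes described are CD55 (Entrez gene ID 100057656) and CD46 (100057176), which protect cell surfaces from complement, C1S (100060261) and C1R (100060297), the proteases of the first component, and SERPING1 (100066476) and CLU (100034172), a pair of secreted inhibitors. They were chosen by name, with earlier results of these data known, and all 6 were found among the 24942 gene IDs of the count table. Each had a read in at least 1 library of every compartment.

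The libraries came from uterine biopsies of warmblood mares, taken on day 12 of pregnancy or on day 12 of the estrous cycle, in a study of how the endometrium changes in early pregnancy. Human chorionic gonadotropin had been given to induce ovulation in both states, and mares in the pregnant cycle were also inseminated with fresh cooled semen. Luminal epithelium, glandular epithelium and stroma were isolated by laser capture microdissection, in which chosen areas of a stained section are cut out under the microscope. RNA was amplified with a single-cell kit, some libraries were amplified again, and the labels do not say which. There were 5 cyclic luminal libraries (mares B, C, J, M and U), 4 pregnant luminal libraries and 4 glandular libraries of each state (mares B, C, M and U), 2 cyclic stromal libraries (mares B and M) and 2 pregnant stromal libraries (mares M and U). The letter names the mare, so the groups share animals. The labels hold 5 mares, and the design text speaks of 6. The labels give no ages.

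Complement is a cascade of plasma and tissue proteins that tags surfaces and can open pores in membranes. In the classical pathway, C1q binds a target, C1r cleaves and activates C1s, and C1s cleaves C4 and C2. SERPING1 (C1 inhibitor) inactivates C1r and C1s. CLU (clusterin) binds the terminal complex in fluids and also acts as a chaperone outside cells. CD55 (decay-accelerating factor) speeds the decay of the C3 and C5 convertases on the cell that carries it. CD46 (membrane cofactor protein) serves as the cofactor with which factor I cleaves C3b and C4b. Both membrane inhibitors are known from epithelia and from the placenta, where fetal tissue that is foreign to the mother lies against her blood or uterine lining.

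Total counts ranged from 136259 to 1467510 reads per library, and 4072 to 11798 genes had a read. The share of reads in 18S ribosomal RNA (RN18S) ran from 0.293% to 66.2%. Levels below are CPM (counts scaled to library size), where the library size was adjusted by trimmed mean of M values (TMM), with 1 scaling over all 21 libraries. They compare a gene between libraries and not 1 gene with another, since transcript lengths were not used here. Summed CPM of 10 stromal fibroblast markers was 6244 to 14228 in stroma, 849 to 5091 in luminal and 421 to 1563 in glandular libraries. The summed epithelial markers (7 genes) were 65.9 to 555 in stroma, against at least 678 in luminal and at least 910 in glandular libraries. KRT18 among them did not separate in the cycle, with means of 157 CPM in stroma (reads in 1 of 2 libraries), 153 in glandular and 179 in luminal libraries. In pregnancy its means were 7.52, 124 and 125 in the same order. In glandular libraries the gland markers summed to at least 14383, most of it from P19 (uterocalin), and to at most 4830 in luminal libraries. In stroma they summed to 845 to 5593, and the highest, that of pregnant mare M, was above every luminal library. SERPINA14, of the same list, was instead higher in lumen (means of 181 CPM in cyclic and 853 in pregnant luminal libraries, 2.75 and 16.3 in glandular ones). FOXA2, a defining gland gene, had no read in any library. In bulk samples, fewer cells of a type and less RNA per cell cannot be told apart.

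In luminal epithelium, CD55 was high in pregnancy and low in the cycle, with 4 reads or fewer in 4 of 5 cyclic libraries. The pregnant libraries held 1047 CPM (mare B), 314 (C), 340 (M) and 312 (U), from 409, 133, 66 and 121 reads. The cyclic libraries held 72.6 CPM (B), 2.69 (C), 1.86 (J), 0 (M) and 6.61 (U), from 35, 3, 1, 0 and 4 reads. In the cyclic library of mare M, 0 reads allow a level of up to 9.38 CPM (3 counts, counting error only). The groups did not overlap: the lowest pregnant library stood above the highest cyclic one, and CD55 was higher in pregnancy in 4 of 4 mares with both states. The share of all genes with such a separation was not computed. Group means were 503 ± 363 CPM (SD, n = 4) and 16.8 ± 31.3 CPM (SD, n = 5).

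In edgeR's quasi-likelihood test, CD55 rose by 4.92 ± 0.99 on the log2 scale (estimate ± SE, adjusted p = 0.00142, Benjamini-Hochberg over all genes tested). It was the 1 gene of the 6 that passed the threshold of 0.05 in luminal epithelium. Of 4344 genes tested there, 19 (0.437%) passed in either direction and 15 (0.345%) passed as higher in pregnancy. With the mare as a replicate block, fitted without mare J, 12 of 3759 genes passed in either direction. The call rests in part on mare B, whose pregnant library was the highest: without it the difference was 4.22 with an adjusted p of 0.194. Over all genes 2 of 5223 passed without that library, so the loss was not particular to CD55. Leaving out each library in turn gave CD55 differences of 4.22 to 7.39. Mare B also held 35 of the 43 CD55 reads of the cyclic luminal libraries, so the size of the rise is loosely set. The test treats the libraries of the same mares in both states as independent, and the SE comes from a spread shared between genes.

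CD46 stood the other way round. The cyclic luminal libraries held 656 CPM (B), 194 (C), 358 (J), 1266 (M) and 585 (U), and the pregnant ones 66.6 (B), 241 (C), 5.15 (M) and 18.1 (U). The pregnant libraries of mares B, M and U were thus below every cyclic library, while that of mare C lay inside the cyclic range and slightly above the same mare's cyclic library. In mare M the read count was 405 in the cycle and 1 in pregnancy. The pregnant luminal library of mare M had the lowest total of the series (136259 reads, 0.452% of them RN18S), and one of the authors' deposited tables, which holds 19 libraries, leaves it out together with the cyclic glandular library of mare M. Without it, CD55 differed by 5.06 (edgeR adjusted p = 4.47e-05) and CD46 by -2.51 (adjusted p = 0.120). Means were 612 ± 409 CPM (SD, n = 5) in the cycle and 82.6 ± 109 CPM (SD, n = 4) in pregnancy.

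The difference in CD46 was -2.89 ± 0.82 (log2, pregnant minus cyclic) and did not pass the threshold (edgeR adjusted p = 0.0723). It also did not pass when any 1 of the 8 other libraries was left out, whereas without the pregnant library of mare C it was -4.20 with an adjusted p of 0.0101.

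**Figure D1:**
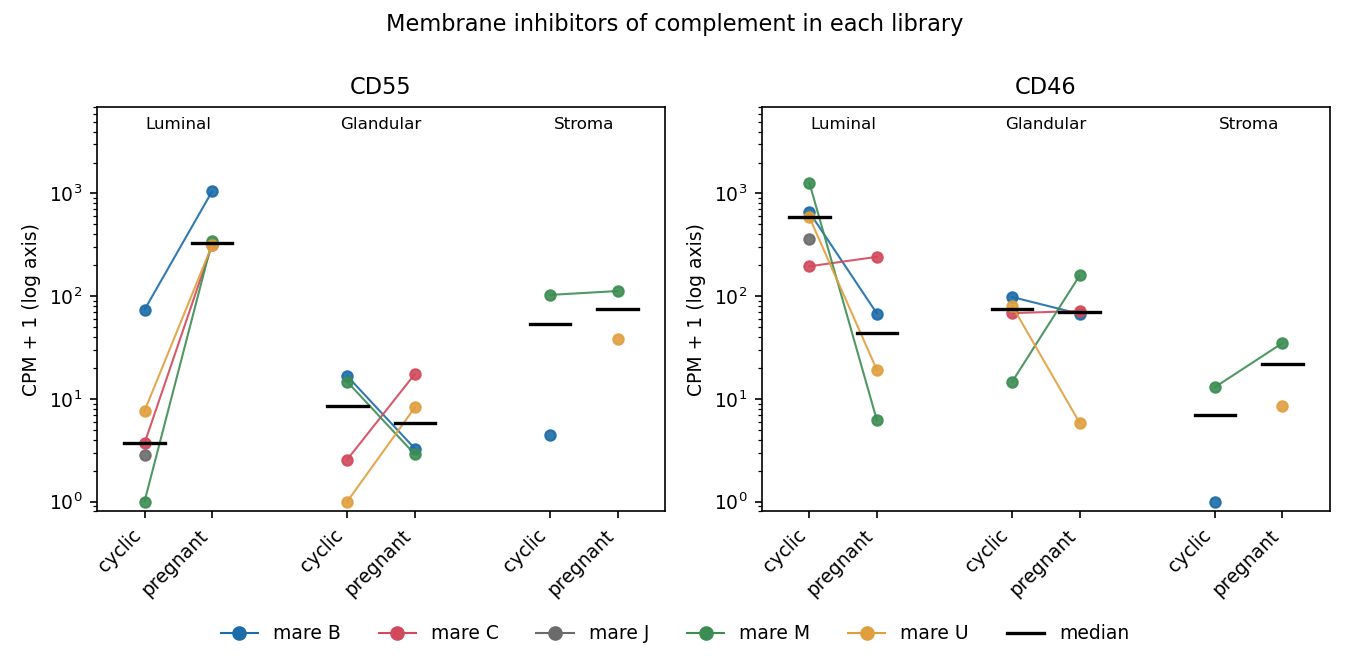
Levels of CD55 (left) and CD46 (right) in each of the 21 libraries, as CPM + 1 on a log axis, by compartment and state; points are libraries colored by mare, lines join the same mare in both states, and bars are group medians. In luminal epithelium all 4 CD55 lines go up, to 312 CPM or more, and 3 of 4 CD46 lines go down; glandular libraries show no common direction for either gene.

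Because both genes were read in the same library, the share of CD55 among the reads of the pair does not depend on scaling between libraries. In the cyclic luminal libraries CD55 made up 9.97% of 351 reads in mare B (exact Clopper-Pearson 95% interval 7.04% to 13.6%), 1.36% of 220 in C, 0.518% of 193 in J, 0% of 405 in M (up to 0.907%) and 1.12% of 358 in U. In the pregnant luminal libraries it made up 94.0% of 435 reads in B (91.4% to 96.1%), 56.6% of 235 in C (49.997% to 63.0%), 98.5% of 67 in M (92.0% to 99.96%) and 94.5% of 128 in U (89.1% to 97.8%). The pair therefore went from nearly all CD46 to mostly CD55, least so in mare C. The kit is not stated to mark molecules, so amplified reads need not be independent and these intervals cover counting error only.

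The mean share was 85.9% ± 19.6 (SD, n = 4) in pregnancy and 2.59% ± 4.16 (SD, n = 5) in the cycle. The difference of 83.3 percentage points had p = 0.0159 in a two-sided exact permutation test, the smallest p this design allows, and 0.0317 after adjustment over the luminal and glandular tests. The pair was chosen with earlier results of these data known, so this p is a description. The test exchanges libraries freely although 4 mares gave both states. Within those 4 mares the share was higher in pregnancy in 4 of 4, by 82.8 percentage points on average, and an exact permutation within mares gave p = 0.125, the smallest it can give. Leaving out each library in turn gave differences of 79.1 to 93.1 percentage points. The ratio shows unequal change of the pair and does not by itself say which gene moved.

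The summed level of the pair, examined after the values were seen, was 586 ± 366 CPM in pregnant luminal libraries (SD, n = 4) and 629 ± 411 CPM in cyclic ones (SD, n = 5). A difference in the sum was not shown (exact permutation p = 0.794, two-sided), which with this spread does not show that the sums were equal. Summing reads adds 2 genes of unlike length, so the sum is one of reads and not of molecules.

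**Figure D2:**
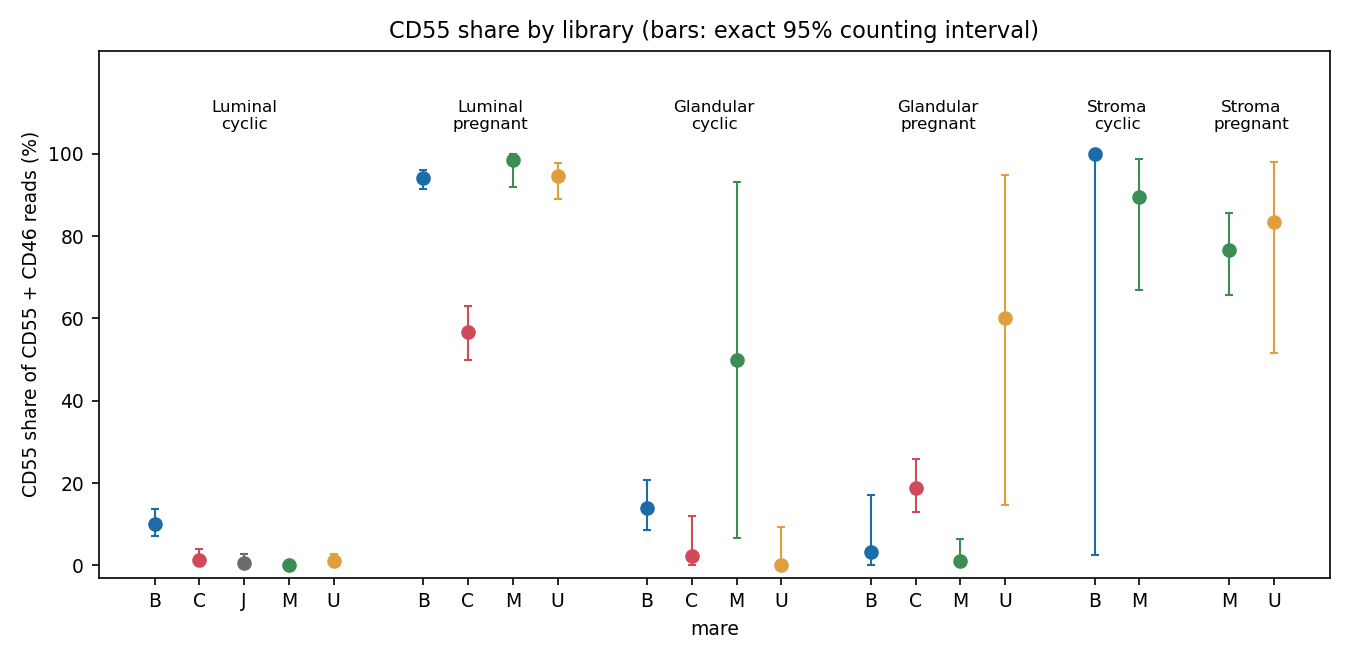
CD55 reads as a percentage of CD55 plus CD46 reads in each library, by compartment, state and mare; bars are exact 95% counting intervals. The 5 cyclic luminal libraries lie at 9.97% or lower and the 4 pregnant ones at 56.6% or higher, and wide bars mark libraries with few reads of the pair.

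In glandular epithelium, CD55 was scarce in both states. Cyclic libraries held 15.6 (B), 1.56 (C), 13.6 (M) and 0 (U) CPM, and pregnant libraries 2.28 (B), 16.4 (C), 1.88 (M) and 7.24 (U). In 6 of 8 libraries this was 3 reads or fewer, and CD55 did not pass the filter on low counts in the test of pregnancy there. CD55 was higher in pregnancy in 2 of 4 mares, with overlapping groups.

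Glandular CD46 was 97.1 (B), 67.3 (C), 13.6 (M) and 79.5 (U) CPM in the cycle and 66.1 (B), 70.8 (C), 158 (M) and 4.83 (U) CPM in pregnancy. The groups overlapped, and the difference was 0.26 ± 1.26 (log2, edgeR adjusted p = 0.999). The share of CD55 was 16.5% ± 23.1 in the cycle and 20.8% ± 27.3 in pregnancy (SD, n = 4 each, exact permutation p = 0.686, two-sided, smallest possible p 0.0286). The highest glandular shares, 50% and 60%, rest on 4 and 5 reads.

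In stroma, the CD55 level was 3.49 (B) and 102 (M) CPM in the cycle and 111 (M) and 37.6 (U) CPM in pregnancy. CD46 was at most 33.9 CPM, with 3 reads or fewer in 3 of 4 stromal libraries. The stromal fibroblast markers summed to 2832 (B), 1750 (C), 5091 (M) and 1308 (U) CPM in the pregnant luminal libraries, against 849 to 2101 in the cyclic ones. CD55 was at least 312 CPM in the pregnant luminal libraries and at most 111 CPM in the stromal ones. Macrophage and dendritic cell markers summed to 20.5 to 191 CPM in pregnant and 14.9 to 332 CPM in cyclic luminal libraries. Those of T and NK cells summed to 38.4 to 212 CPM in pregnant and 25.0 to 94.2 CPM in cyclic ones, and the part of stromal and immune cells in the CD55 result was not tested.

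Whether the effect of pregnancy differs between the epithelia was tested over the 16 epithelial libraries, without mare J, which gave no glandular library. The difference of effects, glandular minus luminal, was -5.18 ± 2.12 for CD55 and 3.03 ± 1.63 for CD46 (log2, edgeR adjusted p = 0.867 for both). Neither passed, and the median over all genes tested was 1.28 in this fit. Of 6884 genes tested, 1 (0.0145%) passed, and it was not one of the 6. A rise of CD55 confined to the luminal compartment is therefore not shown.

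C1S, the protease that cuts C4 and C2, was read in all 21 libraries. In luminal epithelium it held 216 (B), 170 (C), 543 (J), 87.5 (M) and 253 (U) CPM in the cycle and 202 (B), 715 (C), 1020 (M) and 237 (U) CPM in pregnancy. The groups overlapped, with mares C and M higher and mares B and U slightly lower in pregnancy, and the difference of 1.05 ± 0.73 (log2) did not pass (edgeR adjusted p = 0.846).

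In glandular epithelium C1S was lower in pregnancy in 4 of 4 mares. It held 96.3 (B), 160 (C), 184 (M) and 117 (U) CPM in the cycle and 75.2 (B), 68.6 (C), 65.8 (M) and 26.6 (U) CPM in pregnancy. The groups did not overlap, but this was checked only for the genes described here. The share of all genes with such a separation was not computed, so an unusual separation is not shown. The difference of -1.18 ± 1.12 (log2) did not pass (edgeR adjusted p = 0.999), in a test in which 3 of 4816 genes (0.0623%) passed. With the mare as a replicate block, 0 genes passed there. In the same glandular libraries the stromal fibroblast markers summed to 605 to 1563 CPM in the cycle and 421 to 879 CPM in pregnancy, and their part in the C1S values was not tested. The difference of effects between the epithelia was -2.62 ± 1.44 for C1S (edgeR adjusted p = 0.867).

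C1R, which activates C1S, showed no common direction. Luminal levels were 51.9 (B), 110 (C), 192 (J), 90.7 (M) and 11.6 (U) CPM in the cycle and 0 (B), 68.4 (C), 474 (M) and 108 (U) CPM in pregnancy. Glandular levels were 50.2 (B), 15.6 (C), 20.5 (M) and 31.4 (U) CPM in the cycle and 134 (B), 45.3 (C), 60.2 (M) and 2.41 (U) CPM in pregnancy. Pregnant libraries were higher in 2 of 4 mares in luminal and in 3 of 4 in glandular epithelium, with overlapping groups in both, and neither difference passed (edgeR adjusted p = 0.973 and 0.999). C1S and C1R are direct neighbours in the RefSeq annotation of the horse assembly TB-T2T, with 0 protein-coding genes between them.

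SERPING1 ranged widely between luminal libraries. It held 118 (B), 78.8 (C), 59.7 (J), 516 (M) and 52.9 (U) CPM in the cycle and 213 (B), 9.43 (C), 10.3 (M) and 170 (U) CPM in pregnancy. Mares B and U were higher and mares C and M lower in pregnancy, and the difference was -0.65 ± 1.11 (log2, edgeR adjusted p = 0.973). In glands it was at most 27.3 CPM, with 3 reads or fewer in 5 of 8 libraries, and it was not tested for pregnancy there.

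CLU in luminal epithelium held 193 (B), 217 (C), 24.2 (J), 206 (M) and 150 (U) CPM in the cycle and 189 (B), 641 (C), 30.9 (M) and 36.1 (U) CPM in pregnancy. Mare C held the highest level of the pregnant libraries, and the other 3 mares were lower in pregnancy than in the cycle. The difference was 0.49 ± 0.95 (log2, edgeR adjusted p = 0.973). In glands CLU ran from 2.09 to 174 CPM in the cycle and from 2.41 to 32.3 CPM in pregnancy, and it did not pass the filter for the test of pregnancy.

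Over the 6 genes, the median luminal difference between states was 0.64 (log2), beside -0.04 over all genes tested. In stroma, 5 of the 6 genes were tested for pregnancy and none passed, with log2 differences from -0.95 to 0.90 and a smallest SE of 1.20. No gene passed there in edgeR (0 of 2212, 0%), where 88 had an unadjusted p under 0.05, and after adjustment 0 passed by DESeq2. There were 2 stromal libraries a state, and mare M alone gave both. The number of calls over all genes depended on the fit, with 3 in a joint fit of all 21 libraries and 2 without the filter on low counts, none of them among the 6.

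**Figure D3:**
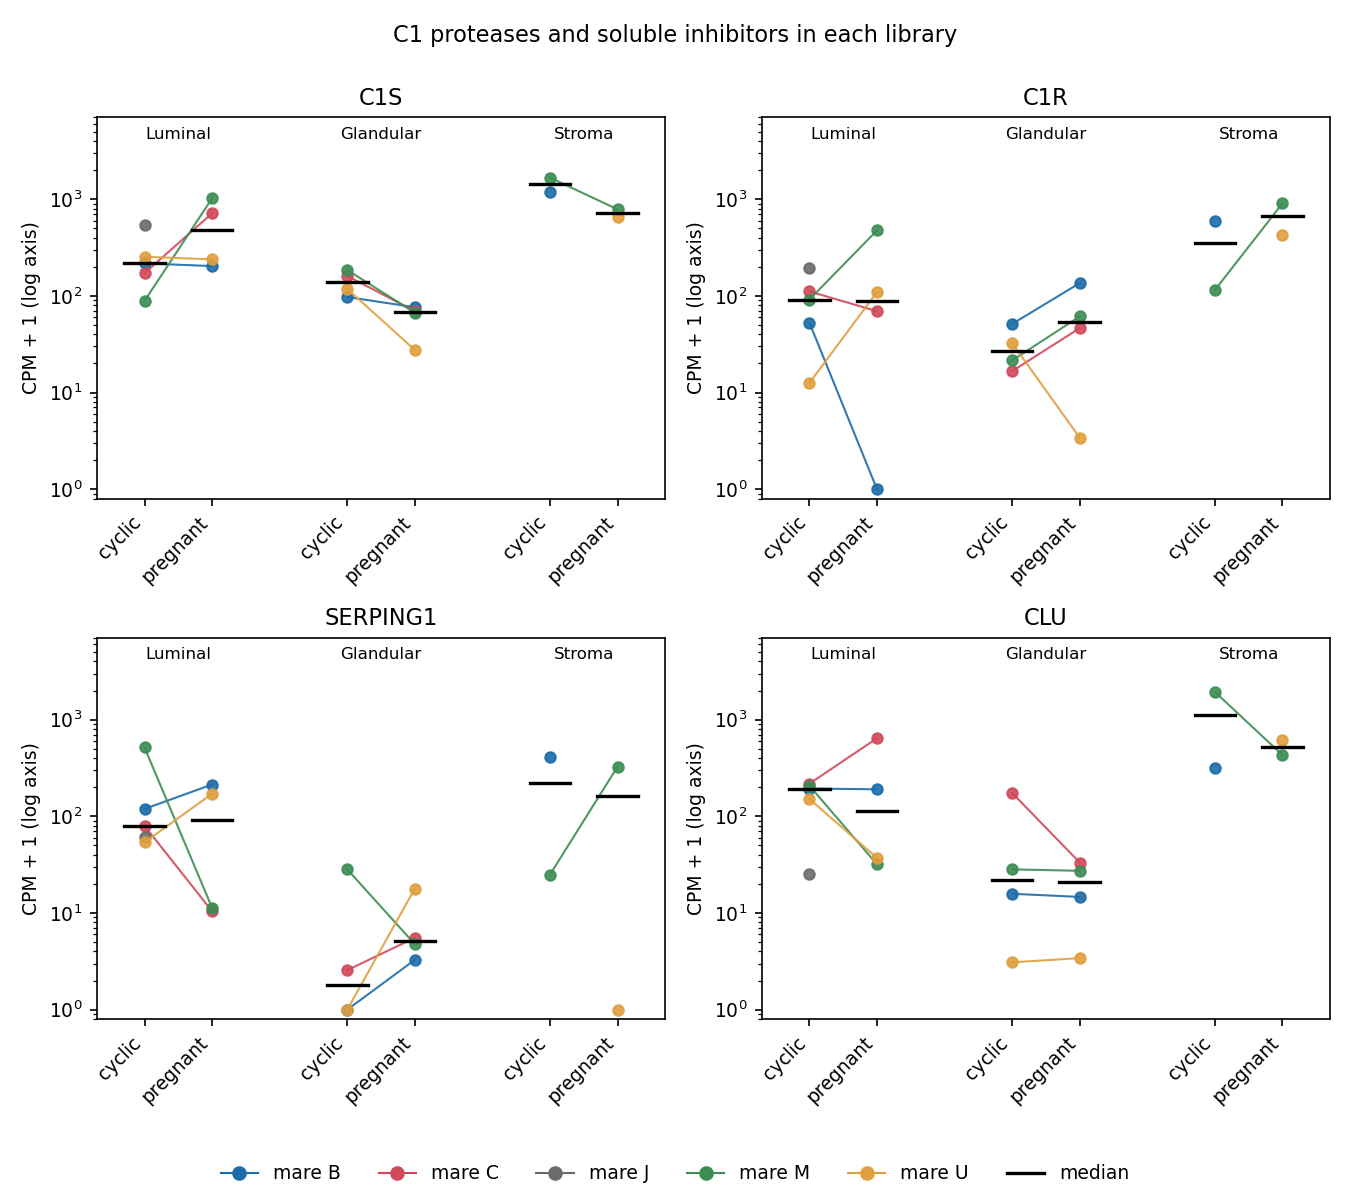
Levels of C1S, C1R, SERPING1 and CLU in each of the 21 libraries, as CPM + 1 on a log axis, by compartment and state; points are libraries colored by mare, lines join the same mare in both states, and bars are group medians. All 4 glandular lines of C1S go down, to 75.2 CPM or less, and in stroma C1S is at 657 CPM or more.

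Between compartments, 5 of the 6 genes were lower in glandular than in luminal epithelium. Counts were summed per mare over both states, with the mare as a block. SERPING1 fell by 4.94 ± 1.07 on the log2 scale (edgeR adjusted p = 0.000199) and was lower in glands in 8 of 8 biopsies. CD55 differed by -4.55 ± 0.91 (adjusted p = 3.45e-05, lower in 7 of 8 biopsies) and CD46 by -2.35 ± 0.55 (adjusted p = 0.000824, 7 of 8). The cyclic and pregnant luminal libraries held 43 and 729 CD55 reads and 1484 and 136 CD46 reads, mare J included. The summed difference thus rests mostly on pregnant biopsies for CD55 and on cyclic ones for CD46, and each state is given below. CLU differed by -3.33 ± 0.86 (adjusted p = 0.00348, 8 of 8 biopsies) and C1S by -1.75 ± 0.60 (adjusted p = 0.0482, 7 of 8). C1R did not pass (-1.01 ± 1.02, adjusted p = 0.782, lower in 6 of 8).

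Of 7174 genes tested between the epithelia, 498 (6.94%) passed, 236 of them (3.29%) as lower in glands. The median over the 6 genes was -2.84 and over all genes tested 0.25. Ciliated cell markers (6 genes) summed to 242 to 3044 CPM in luminal and 14.5 to 807 CPM in glandular libraries. The stromal fibroblast markers reached 5091 CPM in luminal and 1563 CPM in glandular libraries, and C1S and CLU had their highest levels in stroma. The part of either cell type in these differences was not tested. C1S was near the threshold and did not pass in 9 of 12 alternatives. The sums give the deeper library of a mare more weight, and with 1 value a library and the biopsy as a replicate block CLU alone passed among the 6, where CD55 and SERPING1 were not tested. Without mare B, CD46 and SERPING1 passed, and CD55 and CLU had adjusted p of 0.153 and 0.104 (edgeR). CLU also did not pass without mare C (adjusted p = 0.109), and C1S did not pass without any 1 of the 4 mares.

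The epithelia were also compared within each state, where 120 of 4600 genes passed in cyclic and 130 of 3988 in pregnant biopsies. In cyclic biopsies alone, CD46 was lower in glands by -3.17 (log2, edgeR adjusted p = 0.0410). CD55 did not pass the filter there and was not tested, so the states cannot be set against each other for it. In pregnant biopsies alone, CD55 was lower by -6.24 (adjusted p = 7.49e-05), and CD46 differed by -0.25 (adjusted p = 0.982). SERPING1 passed in cyclic biopsies (-6.16, adjusted p = 0.0174). C1S differed by -0.38 in cyclic biopsies (adjusted p = 0.957) and by -3.05 in pregnant ones (adjusted p = 0.0660). The change of these compartment differences with state is the difference of effects given above, which passed for none of the 6.

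The C1 proteases and CLU had their highest mean levels in stroma. So did SERPING1, with a wide spread: 190 ± 209 CPM in stroma (SD, n = 4 libraries), 136 ± 158 in luminal (n = 9) and 7.04 ± 9.83 in glandular epithelium (n = 8). C1S held 1179 (cyclic B), 1671 (cyclic M), 784 (pregnant M) and 657 (pregnant U) CPM in stroma, above every glandular library and all luminal libraries except those of pregnant mares C and M. Its mean was 1073 ± 456 CPM in stroma (SD, n = 4 libraries), 383 ± 311 in luminal (n = 9) and 99.2 ± 52.2 in glandular epithelium (n = 8). C1R held 589 (cyclic B), 114 (cyclic M), 904 (pregnant M) and 421 (pregnant U) CPM in stroma. CLU held 317, 1940, 429 and 616 CPM in the same order. In each of the 4 biopsies with stroma, C1S, C1R and CLU were higher in stroma than in glands.

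Against glandular epithelium, stromal CLU was higher by 5.57 ± 1.38 (log2, edgeR adjusted p = 0.0117), C1R by 4.68 ± 1.32 (adjusted p = 0.0342) and C1S by 3.98 ± 1.08 (adjusted p = 0.0277). Here 63 of 4830 genes (1.3%) passed, 38 of them (0.787%) as higher in stroma, and with another scaling (RLE size factors) the split was 48 higher of 64. The median over the 6 genes was 4.32 and over all genes tested -1.07. These calls rest on 3 mares: without mare B or mare M none of the 3 passed, and without mare U C1S alone did. Over all genes, 0 of 4991 passed without mare B and 2 of 3989 without mare M, 0 of them as higher in stroma. Without mare U 45 of 6846 passed. The losses without mare B or M were thus not particular to these genes.

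Against luminal epithelium, stromal C1R was 2.43 ± 1.13, CLU 2.53 ± 1.20 and C1S 1.79 ± 0.95 (log2, edgeR adjusted p = 0.394, 0.421 and 0.514). None passed, in a test with 61 calls among 3512 genes (1.74%), although C1R and CLU were higher in stroma in 4 of 4 biopsies. The order of C1S, C1R and CLU was therefore stroma, luminal and glandular epithelium, with stroma and lumen not separated by the test, nor, for C1R, lumen and glands. SERPING1 in stroma was 412 (cyclic B), 24.0 (cyclic M), 326 (pregnant M) and 0 (pregnant U) CPM, and it passed against neither epithelium (adjusted p = 0.691 against glands and 0.95 against lumen).

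**Figure D4:**
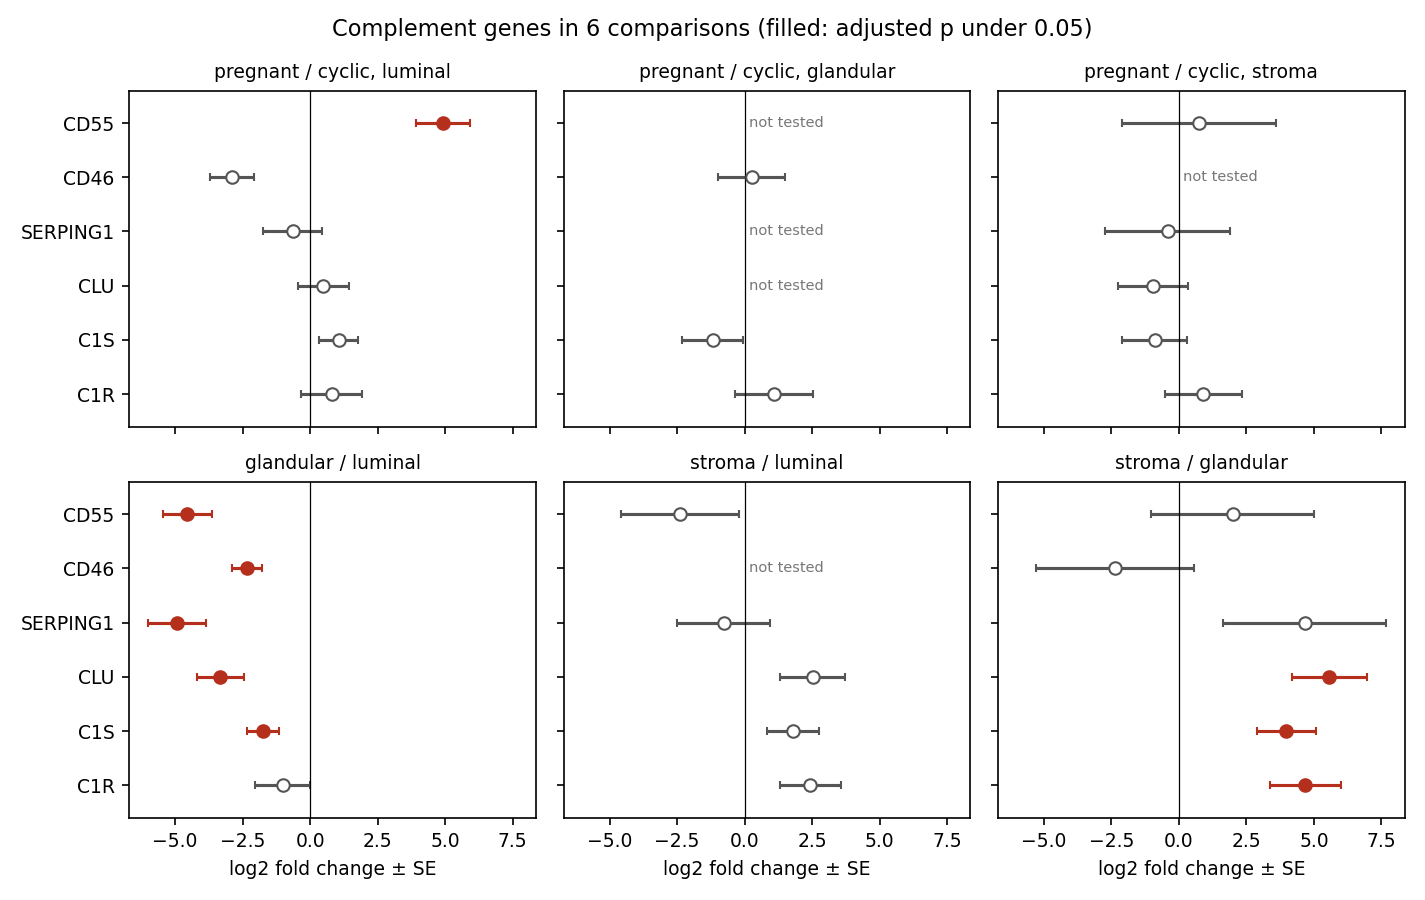
Log2 fold change ± SE of the 6 genes in 6 comparisons (edgeR, each comparison fitted separately); filled points have an adjusted p under 0.05, and genes that did not pass the filter on low counts are marked as not tested. CD55 alone is filled for pregnancy in luminal epithelium, 5 genes are filled to the left for glandular against luminal epithelium, and CLU, C1S and C1R are filled to the right for stroma against glandular epithelium.

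The rest of the system was thinly covered. Of 57 listed complement genes, 49 were found by symbol and 33 had a read. FCN1, C3, C4A, C4B, CFD, CD59, CR1 and CR2 were not matched by symbol and are not analysed here, so neither the central component C3 nor the third membrane inhibitor of this family of functions, CD59, is described. Of the recognition and protease genes, 7 of 13 in the table had a read, and MASP1, MASP2 and MBL2 of the lectin pathway had none. The activation genes C2, C5, CFB and CFP had between 1 and 27 reads over all libraries. Among the terminal genes, C6, C7 and C8G had reads, and C8A, C8B and C9 had none. VTN (vitronectin), a soluble inhibitor, had none either, and a gene without reads was not detectable at this depth.

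CFI, the protease that cuts C3b with CD46 as cofactor, passed a test of its own. It held 580 ± 222 CPM in glandular (SD, n = 8 libraries), 190 ± 108 in luminal (n = 9) and 59.0 ± 48.5 in stromal libraries (n = 4). It was higher in glandular than in luminal epithelium by 1.77 ± 0.50 (log2, edgeR adjusted p = 0.00976), opposite in direction to CD46, and passed in 5 of 12 alternatives, though not without mare C, M or U (adjusted p = 0.0656, 0.0592 and 0.398). Its levels in the 2 states were 527 ± 190 and 632 ± 268 CPM in glands (SD, n = 4 each, cyclic and pregnant). In luminal epithelium they were 192 ± 89.0 (n = 5) and 188 ± 143 CPM (n = 4). CFI was the 1 call among the other complement genes tested in the 7 comparisons, of which 4 to 6 were tested in each.

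Among the other abundant genes, CALR (calreticulin, a chaperone that also binds C1q) was 816 ± 602 CPM in glandular, 299 ± 195 in luminal and 158 ± 145 in stromal libraries. Its difference between the epithelia was 1.34 ± 0.46 (log2, edgeR adjusted p = 0.0513). C1QBP, a mitochondrial protein that binds C1q heads, was 169 ± 151 CPM in pregnant luminal libraries (n = 4) and 25.4 ± 19.8 in cyclic ones (n = 5), with a difference of 2.71 ± 1.38 (adjusted p = 0.635). COLEC12, a scavenger receptor of the collectin family, was 470 ± 191 CPM in pregnant and 19.4 ± 2.10 CPM in cyclic stroma (SD, n = 2 each, difference 4.59 ± 2.29, adjusted p = 0.999). CD93, a receptor of endothelial and myeloid cells, was 163 ± 158 CPM in stroma and 18.5 ± 42.6 in glandular libraries. C1QB and C1QC, chains of C1q that macrophages make, had a read in 12 of 21 libraries each, and C7, a terminal component, in 13.

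Genes whose levels followed those of the 6 most closely were taken by Pearson r of log2 CPM over the 21 libraries, among 9368 genes. This is a description: the libraries share mares, biopsies and depth. For CD55 they were LOC100052045 (r = 0.82), IFI44L (0.78), known as an interferon-induced gene, and LGALS3BP (0.77), a secreted glycoprotein that binds galectin. For CD46 they were EMC1 (0.85), LOC100063291 (0.83) and ADNP2 (0.82). C1S was followed by TFPI2 (0.85), LDB2 (0.84) and the collagen gene COL1A1 (0.82), and C1R by CYLD (0.81), RBM41 (0.73) and COL6A2 (0.73). CLU was followed by COL12A1 (0.86), LOC100054688 (0.80) and ADAM33 (0.76), and SERPING1, with the lowest values, by TMTC2 (0.72), LRRC49 (0.72) and AFAP1L2 (0.70). CD46 and CD55 lie on the same chromosome of TB-T2T with 7 protein-coding genes between them, CR1L among them, a related gene. The labels do not say how reads shared by similar genes were counted, so the counts of both genes carry that uncertainty.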

How the data were processed

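RNA sequencing of 21 laser-captured libraries was analysed from a table of raw read counts that the authors deposited, with the total differing between libraries. Per the submitters' processing notes, the tools were Trimmomatic 0.32.2 (trimming) and HISAT2 2.0.3 (alignment). Not given in the sources used here are the counting tool, its rule for strand and shared reads, the genome build and any removal of duplicates. The authors also deposited 2 tables of scaled signal (10307 genes in 21 libraries, 10410 genes in 19), in which every value is the count over 1 constant per library. They served as alternatives, with limma 3.58.1 on log2(value + 1) or log2(value + 5).

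The 6 genes and all lists were chosen with earlier results of these data known. Of 24942 gene IDs, 21420 (85.9%) matched a symbol in a RefSeq gene table (assembly TB-T2T). Tests were edgeR 4.0.16 quasi-likelihood F-tests (two-sided) in R 4.3.3, with TMM scaling, filterByExpr (minimum count 10, minimum total count 15), Benjamini-Hochberg adjustment over all genes tested and a threshold of 0.05. Each comparison had its own fit and scaling, so a log2 difference need not equal the ratio of the CPM given. The SE was taken as |estimate|/sqrt(F). Compartments were compared on counts summed per mare over biopsies that gave both. The difference of effects had the biopsy as a block. The scripts were tested on simulated data with large set changes and no mare or biopsy effect. That checks the code and not its power on these data. DESeq2 1.42.0, other scaling, no filter, no ribosomal RNA genes, a joint fit, replicate blocks and leaving out each library or mare were alternatives. Shares were tested with scipy 1.17.1. The replicate letter names the mare, so it pairs samples, while correlations of same-mare deviations were 0.018 to 0.051 in luminal and -0.014 to 0.041 in glandular epithelium. Named genes were the 6, the list's other genes that passed or were among the 8 most abundant, and the 3 most alike to each of the 6. No sequences were used here.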

Additional observations from a re-analysis of the deposited data

Results flagged for a closer look

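Of the 24 groups of 4 or 5 libraries examined (6 genes, 4 epithelial groups), 6 held a library far from the others by Dixon's 95% critical value. Normally distributed values pass it in about 1 in 20 groups. CPM without a log need not be so distributed, and each flagged library was the highest of its group. An excess of such libraries is therefore not shown. For CD55 these were the luminal libraries of mare B in both states: 72.6 CPM in the cycle, with the next library at 6.61, and 1047 CPM in pregnancy, with the next at 340. Mare B thus held the highest luminal CD55 in each state. SERPING1 stood apart in cyclic luminal mare M, at 516 CPM with the next at 118. In glands it stood apart in cyclic mare M (27.3 CPM, next 1.56) and pregnant mare U (16.9 CPM, next 4.53), at 4 and 7 reads. CLU stood apart in cyclic glandular mare C, at 174 CPM with the next at 27.3.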

How the results depend on the processing

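Few reads, 2 to 5 libraries a group and 3 or 4 mares limit these results. The CD55 rise in luminal epithelium kept its direction in all 19 alternatives and its call in 14. With the mare as replicate block, which in luminal epithelium leaves out mare J, it was 5.89 (edgeR adjusted p = 0.000578). Its call was lost in the joint fit of 21 libraries (4.89), with the deposited signal of 21 libraries (6.25 and 5.21 at pseudocounts 1 and 5) and of 19 libraries (6.36), and without pregnant mare B. The number of the 6 genes that passed there was 0 in each of these 4 fits and 0 to 2 when 1 library was left out. Over all genes, the signal fits called 0 of 10307 (21 libraries, both pseudocounts) and 0 of 10410 (19 libraries), and the joint fit 1 of 9789. The loss in those fits was thus not particular to CD55. Leaving out 1 library gave 2 to 37 calls over all genes. In luminal epithelium CD46 kept its direction in all 19 alternatives, at -4.20 to -2.47 when 1 library was left out and -3.84 (adjusted p = 0.0936) with the replicate block. The CD55 share of the pair in luminal epithelium, tested within mares (replicate block, chosen after seeing the data), differed by 82.8 percentage points with p = 0.125 in an exact permutation test that can go no lower. The replicate block changed no edgeR call of a pregnancy effect among the 6 genes.

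Of the 5 genes that passed between the epithelia, 1 passed with 1 value a library and the biopsy as replicate block, 2 in cyclic and 1 in pregnant biopsies, and 2 to 4 when a mare was left out. Over all genes these fits called 247 of 3909, 120 of 4600 and 130 of 3988, and 230 to 411 without a mare. For stroma against lumen the number was 1 with DESeq2 (CD46) and 0 to 1 without a mare, and for stroma against glands 0 without a filter and 0 to 1 without a mare. Over all genes, stroma against lumen gave 352 of 12518 with DESeq2 and 18 to 36 without a mare. Stroma against glands gave 20 of 13453 without a filter and 0 to 45 without a mare.

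Reversals all concerned differences that had not passed, and the cause was not tested. In luminal epithelium C1R was -0.62, -0.13 and -1.78 with the deposited signal (21 libraries at pseudocounts 1 and 5, then 19) and -0.70 to 1.35 without 1 library. CLU was -0.22 and -0.20 with the signal of 21 libraries, -0.75 with the replicate block and -0.77 to 0.85 without 1 library, and SERPING1 was -1.34 to 0.39. Glandular CD46 was -0.20, -0.11 and -0.81 with the signal, -0.22 with the replicate block and -0.46 to 0.65 without 1 library. In stroma, leaving out 1 library gave CD55 -0.40 to 4.30, SERPING1 -8.81 to 3.04 and CLU -1.78 to 0.65, where a lone library is assumed to vary like the others. The difference of effects for CLU was -0.35 (RLE), -0.37 (DESeq2), -0.044 (no ribosomal RNA genes), -1.71 (no replicate block) and -0.82 to 1.48 without a mare, and for C1R -1.88 to 1.70. SERPING1 in stroma against lumen was 0.30 with no replicate block and -3.05 to 0.81 without a mare. The glandular CD55 share differed by -8.76 to 15.5 percentage points, and the summed CPM of CD55 and CD46 by -219 to 117 in luminal and -16.2 to 33.1 in glandular epithelium, without 1 library.

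Calls over all genes moved with the tool. Luminal pregnancy calls (19) were 122 with DESeq2, 12 without a filter and 1 in the joint fit. Glandular calls (3) were 0 with RLE, 1 with DESeq2, 34 without a filter and 7 in the joint fit. The stromal count of 0 was 2 without a filter and 3 in the joint fit. Differences of effects (1) were 36 with DESeq2, 8 with no replicate block and 0 without ribosomal RNA genes. Between the epithelia (498) DESeq2 gave 1181 and 1 value a library 247. Stroma against lumen (61) gave 352 with DESeq2 and 29 without a filter, and stroma against glands (63) 301, 20 and, with no replicate block, 99. RLE scaling moved the luminal median of all genes from -0.04 to 0.11.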
